A study of Mus musculus with 11 samples.

Results

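The miR-302/miR-367 cluster is a group of 5 miRNA hairpins, miR-302b, miR-302c, miR-302a, miR-302d and miR-367, that lie next to each other in the mouse genome and are known for their expression in pluripotent cells. Its members were taken by name from a table of miRNA levels, with each arm of a hairpin that the table lists, which gave 9 mature miRNAs of the 592 measured. The 5 members from the 3′ side of a hairpin (3p) are miR-302a-3p, miR-302b-3p, miR-302c-3p, miR-302d-3p and miR-367-3p, and the 4 from the 5′ side (5p) are miR-302a-5p, miR-302b-5p, miR-302c-5p and miR-302d-5p. The miR-367-5p arm was not analysed here.

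Small RNA was sequenced from mouse embryonic stem (mES) cells that had lost or kept Trim71, an RNA-binding protein and E3 ubiquitin ligase of stem cells, to ask how its loss affects miRNAs. All libraries came from male C57BL/6 mES cells with floxed Trim71 alleles and a tamoxifen-activated Cre recombinase at the Rosa26 locus (Trim71fl/fl;Rosa26-CreERT2), grown with serum and LIF and sorted magnetically for the stem cell antigen SSEA-1. Trim71-/- cells had, per the labels, been given 500 nM 4-hydroxytamoxifen (4-OHT) for 2 days, which deletes exon 4, and had then been kept in culture for at least 7 days. The methods of the study differ from the labels here and give a lower dose and a shorter culture. Trim71fl/fl cells kept the gene and, by the methods of the study, had been given the solvent in place of 4-OHT, so that the genotypes also differ in exposure to 4-OHT and to active Cre. The 11 libraries came from 2 clones and 6 days, and 5 days hold 1 library of each genotype from the same clone, namely days 1, 5 and 6 from clone 1 and days 3 and 4 from clone E3. Nothing in the labels says whether the days are separate cultures, so that p-values measure only the spread between these libraries. The mRNA of Trim71 is not in a miRNA table, and its loss could not be checked in these libraries.

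Hairpins of a cluster are cut from a shared primary transcript by Drosha and then by Dicer, and from each hairpin mainly a single arm stays bound to an Argonaute protein. Bases 2 to 8 of the bound miRNA, the seed, pair with target mRNAs, so that miRNAs of the same seed share predicted targets. Some miR-302 members share their seed with members of the miR-290 to miR-295 cluster, and both clusters are known in embryonic stem cells for sustaining a fast cell cycle and for opposing the let-7 family, which silences stem cell genes during differentiation.

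The mature sequences show how closely the members are related, and are given here because reads of close relatives could be counted for each other and because the seed sets the comparison groups used later. They were available for 8 of the 9 members (RefSeq, GRCm38.p6), all but miR-302a-3p, and are written 5′ to 3′ with bases 2 to 8 in capitals. The 3p arms were:
miR-302b-3p: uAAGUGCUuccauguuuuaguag
miR-302d-3p: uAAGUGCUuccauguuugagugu
miR-302c-3p: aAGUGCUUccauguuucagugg
miR-367-3p: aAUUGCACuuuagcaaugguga

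The 5p arms were:
miR-302b-5p: aCUUUAACaugggaaugcuuucu
miR-302d-5p: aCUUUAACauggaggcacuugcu
miR-302c-5p: gCUUUAACaugggguuaccugc
miR-302a-5p: aCUUAAACgugguuguacuugc

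miR-302b-3p and miR-302d-3p had the same 17 leading bases and differ only within their last 6. miR-302c-3p holds the same stretch of 16 bases as these 2, but the listed sequence starts 1 base later, so that its bases 2 to 8 read AGUGCUU in place of AAGUGCU. The 5p arms of miR-302b, miR-302c and miR-302d shared the seed CUUUAAC and a stretch of 11 bases, while miR-302a-5p had the seed CUUAAAC. miR-367-3p has a seed of its own within the cluster, AUUGCAC, which it shares with the miR-25 and miR-92 family.

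The hairpins span 580 nucleotides of chromosome 3, at chr3:127545228-127545807 on the plus strand (GRCm38), in the order miR-302b, miR-302c, miR-302a, miR-302d and miR-367. Gaps of 61, 65, 59 and 43 nucleotides separate them. In the GENCODE M21 annotation the whole cluster lies in an intron of Larp7, which encodes a protein that binds the 7SK RNA and is transcribed from the opposite strand. The intron, at chr3:127544279-127545825, lies between exons 8 and 9 of the Larp7 transcript with 13 exons, counted on its own strand.

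The deposited values are normalised read counts from which a batch effect was removed, with values under 1 set to 1 (the floor). For each member, the Trim71-/- and Trim71fl/fl values of a day added up to the same number on every day where neither was at the floor, to within 0.000215%. A high Trim71-/- value therefore always stands beside a low Trim71fl/fl value, both genotypes have the same standard deviation (SD) in every member but miR-302c-5p, which has the floor value, and each day gives 1 difference. A same-day ratio is that difference set around the mean of all days, and is not the ratio of the reads of that day. The Trim71fl/fl library of day 2, which has no partner, equalled the mean of the other Trim71fl/fl libraries and was left out. The remaining 10 libraries had summed values between 2742670 and 5551710, both extremes on day 5, and the reads behind them are unknown, so that no counting interval could be given. Of the 90 member values, 1 was at the floor.

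The level of the members spanned more than 2 orders of magnitude. miR-302b-3p (mean of 6312 normalised reads over the 10 libraries) and miR-302d-3p (5979) led, at ranks 52 and 55 of all 592 miRNAs. miR-302a-3p followed at 1029 and miR-302c-3p at 551, and miR-302a-5p, the most abundant 5p arm, at 189. miR-367-3p (69.9), miR-302c-5p (61.6), miR-302d-5p (30.1) and miR-302b-5p (24.7) were low.

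Neighbours in this order were compared library by library. Same-day libraries mirror each other, so that the 10 are not independent. miR-302b-3p and miR-302d-3p were each the higher in 5 of 10 libraries, with the lead changing within every same-day pair. Their fixed same-day sums are close to each other, which makes such a change likely, and the count does not rank them. miR-302d-3p was above miR-302a-3p, miR-302a-3p above miR-302c-3p and miR-302c-3p above miR-302a-5p in 10 of 10 libraries. The lower places were less clear, with miR-302a-5p above miR-367-3p in 9 of 10, miR-367-3p above miR-302c-5p in 7, miR-302c-5p above miR-302d-5p in 9 and miR-302d-5p above miR-302b-5p in 8. The order does not follow the position of the hairpins, since the most abundant members come from the first and the fourth.

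**Figure D1:**
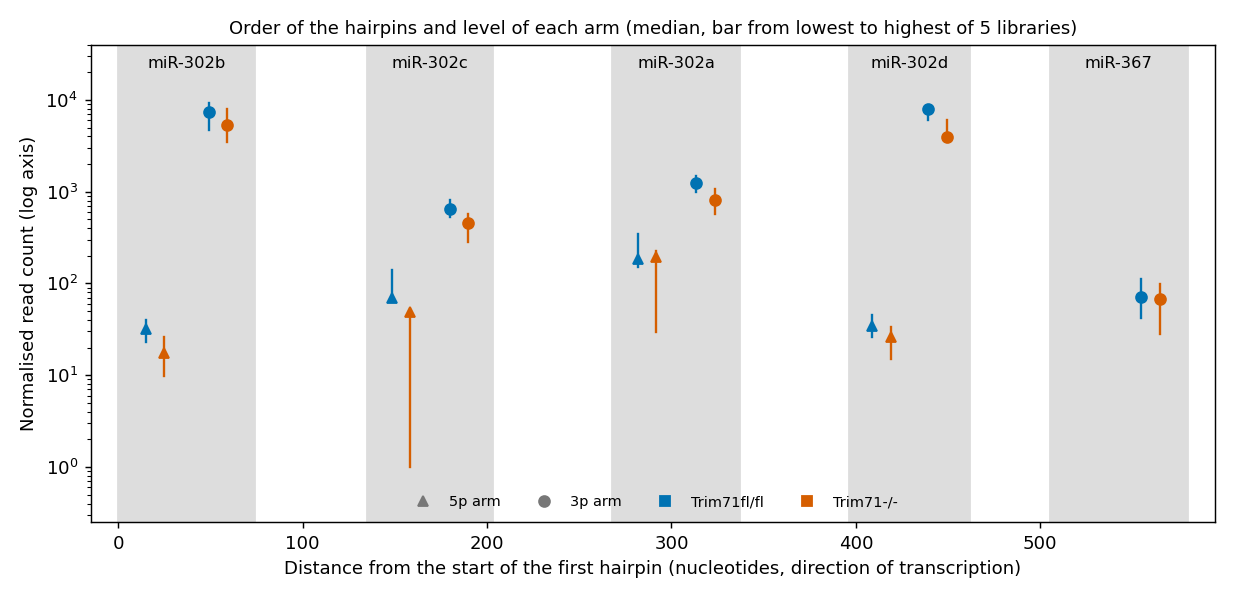
Level of each arm by hairpin, in normalised read count on a log axis, against the distance in nucleotides from the start of the first hairpin; points are medians and bars run from the lowest to the highest of 5 libraries per genotype, and each arm is drawn at a fixed place in its hairpin (grey). The 3p arms (circles) lie above the 5p arms (triangles) of the same hairpin, and miR-302c-5p has the longest bar, down to the floor of 1.

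The 3p arms held between 97.4% and 99.0% of the summed level of the cluster in every paired library. The excess differed among hairpins. Set against each other as means over the 10 libraries, the 3p arm was 255 times the 5p arm for miR-302b, 198 times for miR-302d, 8.94 times for miR-302c and 5.44 times for miR-302a. Over single libraries the ratio ran from 123 to 701 for miR-302b, from 119 to 293.8 for miR-302d from 3.55 to 19.6 for miR-302a and, with the floor value at its upper end, from 4.27 to 504 for miR-302c. miR-302b-3p and miR-302d-3p together made up 85.0% to 88.0% of the cluster, although the share of either alone ranged widely, from 31.3% to 58.7% for miR-302b-3p and from 28.9% to 53.7% for miR-302d-3p.

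The genotypes were compared within the 5 same-day pairs. The fitted mean was lower in Trim71-/- than in Trim71fl/fl mES cells for each of the 9 members, beside 48.8% of all miRNAs. The median log2 difference of the members was -0.64, beside 0.03 for all 592 miRNAs, and without day 3 it was -0.34. No single member passed the test in the paired fit on log2 of the deposited values, with limma's trend off. The test was limma on log2(value + 1), with terms for genotype and for day. The thresholds of the study are more than 1.5-fold, with p under 0.05 before adjustment. On the lower side 0 of 9 passed them, beside 4.56% of all miRNAs. An unadjusted p under 0.05 at all was found for 0 of 9, beside 5.41% of all miRNAs. At an adjusted p under 0.05 there were 0 of 9, as for all miRNAs (0%). Adjusted p-values of the members lay between 0.607 and 0.758. In the same fit on untransformed values, 2 members, miR-302a-3p and miR-302d-3p, were past the thresholds of the study, beside 3.21% of all miRNAs in that fit, and with limma's trend miR-302d-3p was, beside 4.22%. Scaled to library totals, miR-302a-3p and miR-302b-5p were past them, beside 7.94%, with the median of all miRNAs itself at -0.24. Scaled to totals without miR-290 to miR-295, miR-302c-5p was, beside 7.26%.

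Among the abundant 3p arms, miR-302d-3p had a difference of -0.66 in log2 (SE 0.30, 95% confidence interval -1.39 to 0.06). In Trim71-/- cells it measured 3904, 3870, 5981, 3839 and 5700 normalised reads on days 1, 3, 4, 5 and 6. The same-day Trim71fl/fl values were 8053, 8087, 5976, 8118 and 6257. Trim71-/- was thus at 0.473 to 0.485 of Trim71fl/fl on days 1, 3 and 5 and near it on days 4 and 6, and the groups met only on day 4, where the values were 5981 and 5976. The means were 4659 ± 1083 and 7298 ± 1083 (SD, n = 5), with p = 0.066 by limma and an exact permutation p of 0.125. The log2 difference was -0.83 and past the thresholds without day 4, and -0.56 without day 5.

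miR-302b-3p, which has the same seed and the same leading bases, gave another pattern. It measured 7925, 3456, 5268, 5319 and 6721 normalised reads in Trim71-/- cells on days 1, 3, 4, 5 and 6. Trim71fl/fl cells had 4698, 9167, 7356, 7305 and 5903. It was higher in Trim71-/- on days 1 and 6 and lower on the other 3 days, with wide overlap. The fitted difference was -0.28 (SE 0.37, 95% confidence interval -1.18 to 0.62, limma p = 0.473, exact permutation p = 0.562), and without day 3 it was 0.00048, which leaves no direction, while it was -0.54 without day 1 and -0.55 when scaled to library totals.

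The opposite signs of these close relatives stood out on day 1, where miR-302b-3p differed by 0.75 and miR-302d-3p by -1.04 in log2. The ratio of miR-302b-3p to miR-302d-3p was 2.03 in the Trim71-/- library of that day and 0.583 in the Trim71fl/fl library. On the other days it lay between 0.881 and 1.39. Their sum, which does not change if reads of either were counted for the other, was 11829 in Trim71-/- and 12752 in Trim71fl/fl on day 1. How reads were assigned was not tested. The sum was also lower in Trim71-/- on day 3 (7327 against 17254), day 4 (11248 against 13332) and day 5 (9158 against 15423), and higher on day 6 (12421 against 12160).

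miR-302a-3p was lower in Trim71-/- on 4 of 5 days. Its Trim71-/- values were 805, 577, 827, 761 and 1072 normalised reads on days 1, 3, 4, 5 and 6. The Trim71fl/fl values were 1253, 1481, 1232, 1297 and 987. Only day 6 had the higher value in Trim71-/-, and it alone makes the groups overlap. The means were 808 ± 177 and 1250.1 ± 177 (SD, n = 5), a log2 difference of -0.64 (SE 0.29, limma p = 0.069, exact permutation p = 0.125). It was -0.84 and past the thresholds without day 6, and -0.47 without day 3. Scaled to library totals it was -0.91 and also past the thresholds.

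miR-302c-3p, whose listed sequence starts 1 base later than those of its relatives, had nearly the same course. Its Trim71-/- values were 504, 284, 454, 452 and 569 normalised reads on days 1, 3, 4, 5 and 6. The Trim71fl/fl values were 597, 818, 647, 650 and 532. Day 6 was again the exception, and day 3 had the largest gap. The log2 difference was -0.54 (SE 0.31, limma p = 0.132, exact permutation p = 0.125), and -0.29 without day 3.

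miR-367-3p, the member with the unrelated seed, varied most among the 3p arms. It measured 98.1, 50.9, 68.0, 28.4 and 68.5 normalised reads in Trim71-/- cells on days 1, 3, 4, 5 and 6. Trim71fl/fl cells had 41.7, 88.8, 71.8, 111 and 71.2. The pairs of days 4 and 6 were close to equal, day 1 had more in Trim71-/- and days 3 and 5 had less. The difference of -0.33 (SE 0.47, limma p = 0.513, exact permutation p = 0.562) rested on single days, since it was 0.07 without day 5 and -0.71 without day 1, and it was -0.59 when scaled to library totals.

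**Figure D2:**
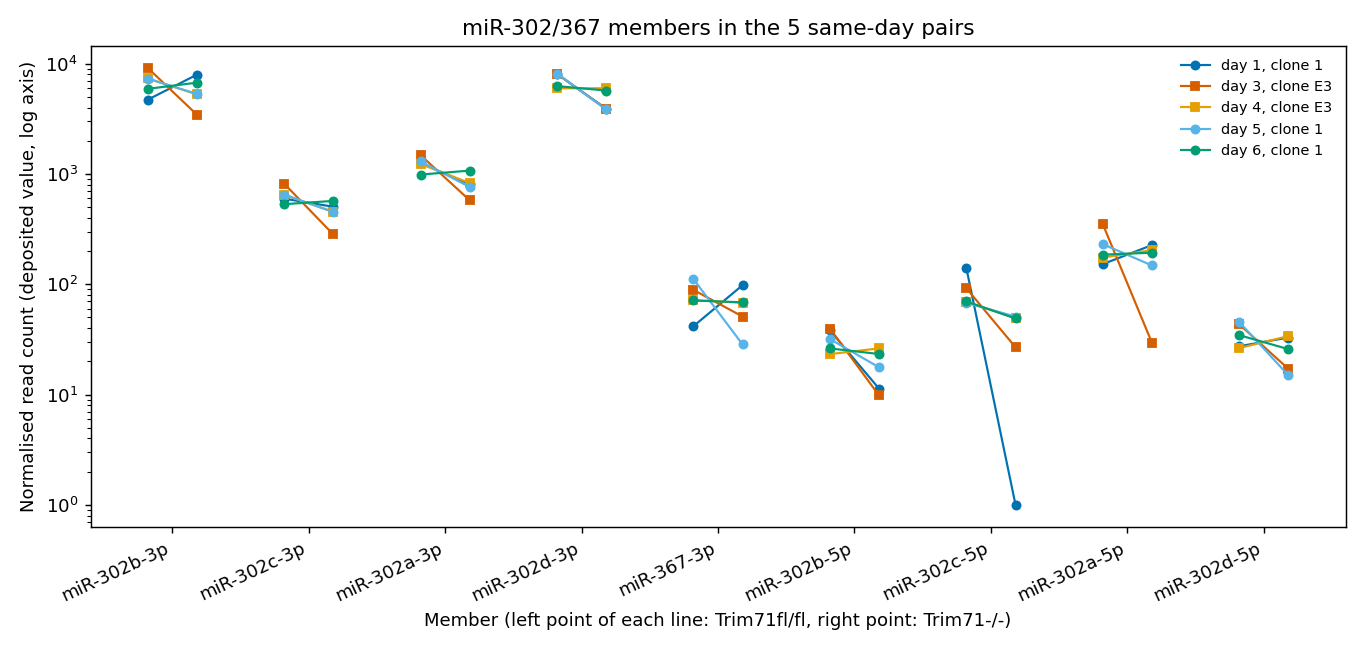
Normalised read count of each member on a log axis, with Trim71fl/fl on the left and Trim71-/- on the right of each line and 1 line per same-day pair (circles for clone 1, squares for clone E3). The lines of miR-302d-3p fall or stay level, those of miR-302b-3p cross, and the steepest are miR-302c-5p on day 1 and miR-302a-5p on day 3.

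Among the 5p arms, miR-302c-5p was the only member that was lower in Trim71-/- on all 5 days, as were 6.25% of all miRNAs, and the only one whose groups did not overlap, with Trim71-/- lower (again 6.25% of all miRNAs). Its Trim71-/- values were 1, 26.8, 49.2, 50.9 and 48.9 normalised reads on days 1, 3, 4, 5 and 6. The Trim71fl/fl values were 140, 91.9, 69.4, 67.8 and 69.8. The value of 1 is the floor. If the same-day sum of the other days also held on day 1, the value before the floor was -21.1, which is inferred and not measured. The day 1 difference of -6.14 in log2 has no meaning as a fold change. The fitted difference was -1.85 (SE 0.92, limma p = 0.090) and -0.78 without day 1, and the exact permutation p was 0.063, the smallest that 5 pairs allow.

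miR-302a-5p was decided by a single day. Its Trim71-/- values were 226, 29.4, 204, 148 and 193 normalised reads on days 1, 3, 4, 5 and 6. The Trim71fl/fl values were 152, 349, 175, 231 and 186. On day 3 the Trim71-/- value was 0.084 of its partner, a log2 difference of -3.53 below which only 0.169% of all miRNAs lay on that day, while days 1, 4 and 6 had more in Trim71-/-. The fitted difference was -0.66 (SE 0.64, limma p = 0.341, exact permutation p = 0.625), and without day 3 it was 0.05.

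The 5p arms of miR-302b and miR-302d were near the lower end of the table, at ranks 474 and 458 of 592. miR-302b-5p measured 11.3, 9.80, 26.2, 17.7 and 23.3 normalised reads in Trim71-/- cells on days 1, 3, 4, 5 and 6. Trim71fl/fl cells had 38.2, 39.7, 23.3, 31.8 and 26.2, so that day 4 alone had more in Trim71-/-. Its log2 difference was -0.88 (SE 0.40, limma p = 0.068, exact permutation p = 0.188). It was -1.14 and past the thresholds without day 4, -0.62 without day 3 and -0.68 without day 1. Scaled to library totals it was also -1.14 and past the thresholds.

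miR-302d-5p measured 32.9, 17.0, 33.9, 14.9 and 25.8 normalised reads in Trim71-/- and 27.4, 43.3, 26.4, 45.4 and 34.5 in Trim71fl/fl on the same days. It was lower in Trim71-/- on 3 of 5 days, with overlapping groups, at a log2 difference of -0.53 (SE 0.38, limma p = 0.218, exact permutation p = 0.312). It was -0.27 without day 5 and -0.34 without day 3.

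Seen by day, the members moved together on 2 of the 5 days. On day 3, a pair of clone E3, all 9 were lower in Trim71-/- (50.8% of all miRNAs were), with log2 differences from -3.53 to -0.79 and a median of -1.41. On day 5, a pair of clone 1, all 9 were again lower (50.2% of all miRNAs), with a median of -0.77. On day 1, 5 of 9 were lower (51.2% of all miRNAs), on day 4 also 5 of 9 (49.7%) and on day 6 also 5 of 9 (49%), with medians of -0.24, -0.08 and -0.05. Members of a cluster share a library, and on a given day they are no independent replicates.

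**Figure D3:**
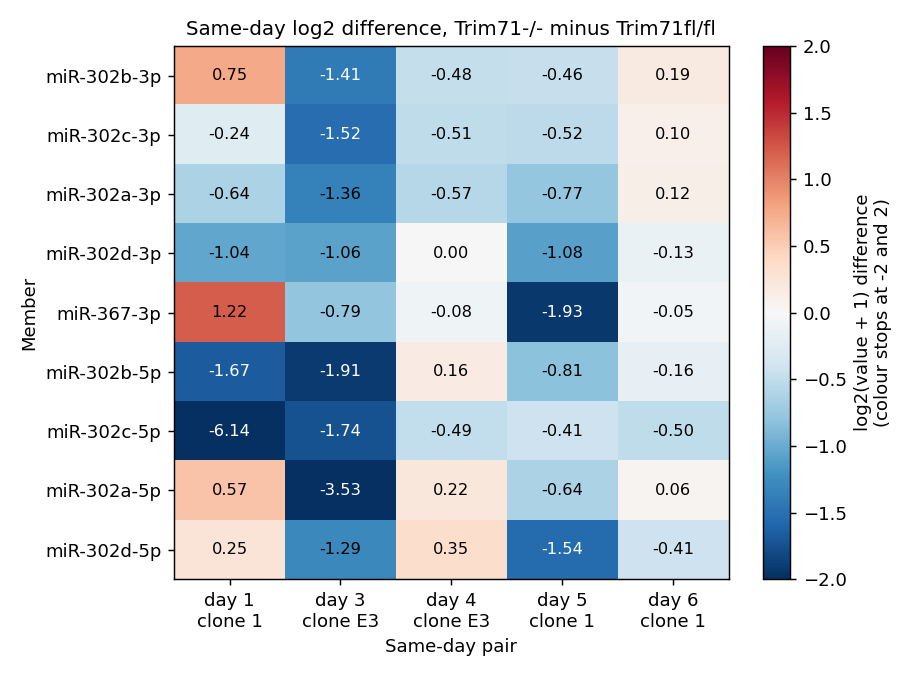
Same-day difference in log2(value + 1), Trim71-/- minus Trim71fl/fl, for each member (rows) and pair (columns), with lower in Trim71-/- in blue and higher in red. The columns of days 3 and 5 are blue throughout, while days 1, 4 and 6 hold both colours.

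The summed level of the cluster followed the same course. It was 13508, 8321, 12910, 10630 and 14421 normalised reads in Trim71-/- cells on days 1, 3, 4, 5 and 6. Trim71fl/fl cells had 15001, 20166, 15577, 17857 and 14066, so that Trim71-/- was at 0.900, 0.413, 0.829, 0.595 and 1.03 of its partner. Of the sum of all miRNAs in a library, the cluster took 0.275% ± 0.075 in Trim71-/- and 0.461% ± 0.124 in Trim71fl/fl (SD, n = 5). These shares ran from 0.191% to 0.344% against 0.360% to 0.651% and are given as a description, and the sums themselves overlap. Trim71-/- minus Trim71fl/fl was -0.19 percentage points, and -0.12 without day 5. The total enters them too. It was higher in Trim71-/- on 4 of 5 days, most on day 5 (5551710 against 2742670), and scaled to totals the median log2 difference of all miRNAs was itself -0.24.

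The clones were compared by the interaction of genotype and clone in limma. No member differed between clones at an unadjusted p under 0.05 (0 of 9, beside 5.57% of all miRNAs), and the smallest p was 0.152, for miR-302b-3p. Its difference was 0.16 in the 3 pairs of clone 1 and -0.94 in the 2 pairs of clone E3, which leaves an interval of -2.78 to 0.57 for E3 minus clone 1. Scaled to library totals, E3 minus clone 1 moved from -1.11 to -0.59 for miR-302b-3p and from -0.80 to -0.28 for miR-302c-3p. It moved from -0.54 to -0.020 for miR-302a-3p and from 0.22 to 0.74 for miR-302d-3p. Scaling moves every miRNA of a library alike, so that these moves are a common shift from the totals and not separate results. miR-302c-3p (-0.22 and -1.02) and miR-302a-3p (-0.43 and -0.97) were lower in Trim71-/- of both clones. miR-302d-3p was also lower in both, at -0.75 in clone 1 and -0.53 in clone E3. The median over members was -0.43 in clone 1 and -0.94 in clone E3, in which day 3 is 1 of 2 pairs.

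The arms of a hairpin were compared by the log2 ratio of 5p to 3p in each library. For miR-302b the ratio was lower in Trim71-/- on 4 of 5 days, by -0.60 on average (SD 1.12, exact permutation p = 0.312), by -0.14 without day 1, the day of -2.42, by -0.91 without day 4 and by -0.34 with a pseudocount of 10. The other differences were -1.31 for miR-302c, which rests on the floor value of day 1 and was -0.17 without that day, -0.02 for miR-302a and 0.14 for miR-302d. None of the 4 differed beyond the spread between days (adjusted exact permutation p between 0.625 and 0.938), and with 5 pairs the smallest unadjusted p is 0.063. For miR-302a the days spread from -2.17 on day 3 to 1.21 on day 1.

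Relatives of the same seed lie in other clusters. The seed AAGUGCU of miR-302b-3p and miR-302d-3p is shared, among the 463 measured miRNAs with a RefSeq sequence, by 3 members of the miR-290 to miR-295 cluster:
miR-291a-3p: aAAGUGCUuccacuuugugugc
miR-294-3p: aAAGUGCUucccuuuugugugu
miR-295-3p: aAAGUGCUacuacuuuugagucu

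These relatives were far more abundant than miR-302, with means of 442220 (miR-291a-3p), 157233 (miR-295-3p) and 109728 (miR-294-3p) normalised reads. Their log2 differences were 0.17, -0.12 and 0.10, each within its error (limma p between 0.543 and 0.736). The 3p arms of miR-302a to miR-302d made up 1.11% to 2.14% of the level of these 7 miRNAs in Trim71-/- and 1.75% to 2.79% in Trim71fl/fl. Those shares were lower in Trim71-/- on days 3, 4 and 5 and higher on days 1 and 6.

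The seed AUUGCAC of miR-367-3p is shared by 5 measured miRNAs of the miR-25 and miR-92 family:
miR-25-3p: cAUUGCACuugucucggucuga
miR-32-5p: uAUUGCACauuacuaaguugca
miR-92a-3p: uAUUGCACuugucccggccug
miR-92b-3p: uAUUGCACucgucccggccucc
miR-363-3p: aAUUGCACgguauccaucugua

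Their means ran from 1721 (miR-92b-3p) to 57281 (miR-92a-3p), beside 69.9 for miR-367-3p. miR-363-3p was lower in Trim71-/- on 5 of 5 days, at -0.44 in log2 (SE 0.24, limma p = 0.109, exact permutation p = 0.063, the smallest possible). The other 4 lay between -0.01 and 0.07. None of the 463 miRNAs with a sequence shared, from outside the cluster, bases 2 to 8 with miR-302c-3p or with a 5p arm of the cluster.

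A wider set holds the core AAGUGC, bases 2 to 7 of miR-302b-3p, anywhere in bases 2 to 8. Among the 463 miRNAs with a RefSeq sequence, the only ones searched, it comprised 8 more. They were miR-17-5p, miR-20a-5p, miR-20b-5p, miR-93-5p, miR-106a-5p and miR-106b-5p of the miR-17 family, known for promoting the cell cycle, and miR-290a-3p and miR-291b-3p of the miR-290 to miR-295 cluster. Of these, 6 had a lower and 2 a higher fitted mean in Trim71-/- (48.8% of all miRNAs were lower), with a median of -0.27. None had an unadjusted p under 0.05 by limma (smallest 0.222), beside 5.41% of all miRNAs. The differences ran from -0.64 (miR-291b-3p) and -0.57 (miR-106a-5p) to 0.13 (miR-290a-3p), each with a 95% confidence interval that crosses 0.

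**Figure D4:**
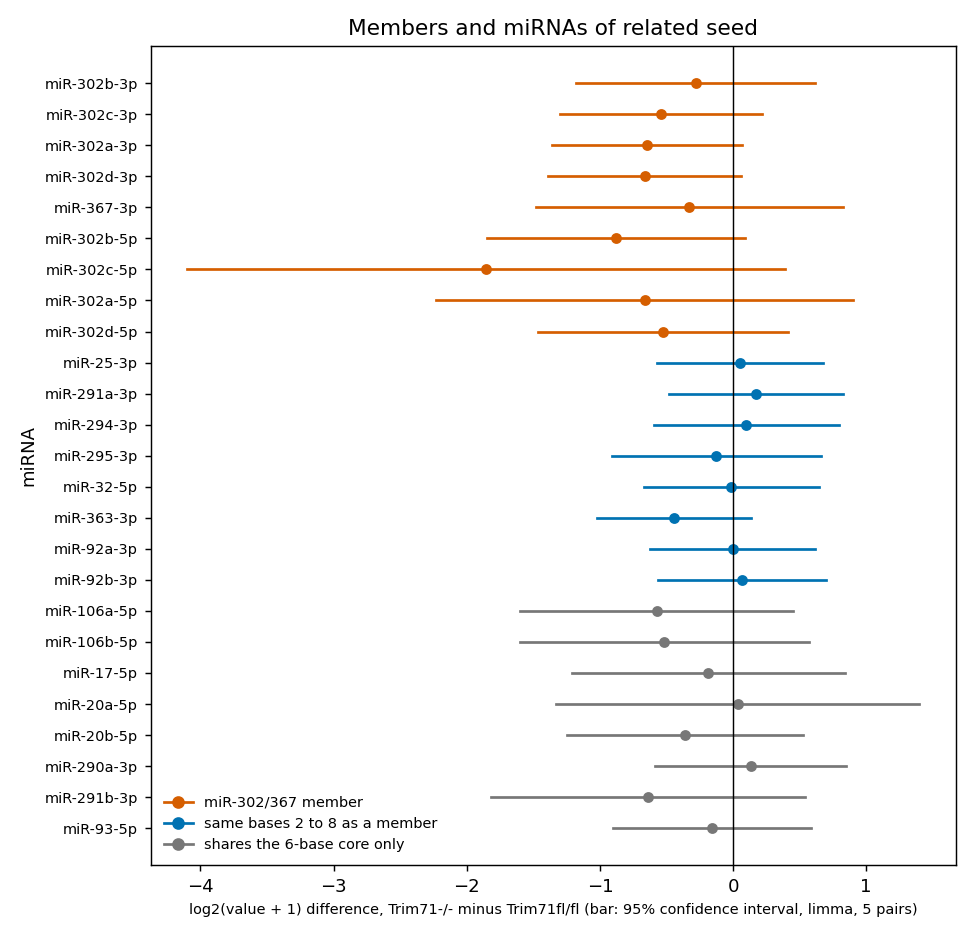
Difference in log2(value + 1), Trim71-/- minus Trim71fl/fl, with the 95% confidence interval from limma over 5 pairs, for the 9 members (orange), the 8 miRNAs with the same bases 2 to 8 as a member (blue) and 8 that share the 6-base core only (grey). All 9 members lie left of 0 and every interval crosses it.

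The miRNAs whose 5 same-day differences were most like those of the cluster were sought among 287 others with a mean of at least 100 and no floor value. Likeness was the mean absolute distance to the median of 5 members of that kind (miR-302a-3p, miR-302a-5p, miR-302b-3p, miR-302c-3p and miR-302d-3p). The nearest were miR-669e-3p (0.29 in log2), miR-466d-3p (0.32), miR-466p-3p (0.32), miR-466b-3p (0.32) and miR-363-5p (0.34), against a median of 0.91 over the candidates. The miR-466 miRNAs were like the cluster on days 1, 4, 5 and 6 and close to 0 on day 3, between -0.04 and 0.04, where the cluster median was -1.41, and miR-363-5p alone among the 5 came near it (-1.35).

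Marker miRNAs of other cell states were summed beside these results. The 18 miRNAs of miR-290 to miR-295, which mark mES cells, took 55.3% to 59.4% of every paired library and had no floor value. Their sum in Trim71-/- was 1.21, 1.14, 0.876, 1.89 and 1.16 times that in Trim71fl/fl on days 1, 3, 4, 5 and 6. The 19 let-7 and miR-98 miRNAs of differentiating cells summed to 34812 to 97268 in Trim71-/- and 782 to 33382 in Trim71fl/fl, with 16 of 19 at the floor in the Trim71fl/fl library of day 6. Their ratio was 1.06, 1.36, 1.04, 1.46 and 124 on days 1, 3, 4, 5 and 6.

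The 10 neural miRNAs, such as miR-9-5p, summed to 6776 to 10524 in Trim71-/- and 4795 to 8541 in Trim71fl/fl, with ratios of 1.52, 1.45, 0.793, 2.19 and 1.34 on days 1, 3, 4, 5 and 6. The 10 fibroblast miRNAs summed to 14000 to 36526 and 13415 to 35920, with ratios of 1.22, 1.24, 0.390, 2.72 and 1.74. Most of these sums came from miR-143-3p, with a mean of 23860 normalised reads over the paired libraries, so that the ratios are mainly its own. On the same days the median log2 differences were 0.32, 0.16, -0.31, 0.43 and 0.09 for the neural list and 0.10, -0.12, 0.84, 0.04 and 0.09 for the fibroblast list. They were 0.05, 0.68, 0.13, 0.37 and 5.39 for let-7 and miR-98, and 0.57, 0.25, 0.31, 0.16 and 0.18 for miR-290 to miR-295. None of these lists was at the floor as a whole, and their part in the differences of the miR-302/miR-367 members was not tested. In bulk RNA, fewer cells with the cluster and less of it per cell cannot be told apart.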

How the data were processed

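Small RNA libraries were made with the NEBNext small RNA kit by the methods of the study, whereas the labels name a TruSeq RNA kit. Per the labels and methods, reads were processed with CASAVA 1.8, aligned with Bowtie2 2.2.1 to mm10 and miRBase, and counted in Partek 6.6. The authors normalised the counts with DESeq2, removed a batch effect, set values under 1 to 1 and dropped low miRNAs, which leaves as deposited unit a signal, comparable to a normalised read count. The table holds no raw counts, and a count test was not possible.

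The labels join same-day libraries of a clone. Around its group mean, each library correlated with its same-day partner at -0.65 to -0.41 over all miRNAs, as the equal sums impose. The test was lmFit with eBayes, trend off (limma 3.58.1, R 4.3.3), on log2(value + 1) of 592 miRNAs with genotype and day, on 10 libraries, with Benjamini-Hochberg adjustment over all of them. Exact two-sided permutation within days used 32 sign patterns. The fit was tested on simulated data whose noise was capped at the median spread, less than many miRNAs have. Fold changes on the log2(value + 1) scale understate those of low miRNAs.

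Apart from those of the marker lists, the miRNAs named are all members, those with the same bases 2 to 8, those with the core AAGUGC, and the 5 nearest profiles. The core was read from miR-302b-3p. RefSeq gave a sequence for 463 of 592 miRNAs. Members and lists were chosen with earlier results of these data known. Alternatives were the fit without pairing, clone as block, all 11 libraries, each pair left out, each clone alone, other scalings and pseudocounts (0.1 and 10), untransformed values with and without the floor, limma with trend and a mean of at least 100. Tables and plots used Python 3.11.15, pandas 2.3.3 and matplotlib 3.10.9.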

Additional observations from a re-analysis of the deposited data

Results flagged for a closer look

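In 2 of 18 groups of 5 values (9 members in each genotype, on the log2 scale) the lowest library lay apart from the others by Dixon's ratio of the gap to the range, whose critical value for 5 is 0.71. Chance alone gives such a library in about 1 in 20 groups. The genotypes of a member mirror each other, so that the 18 groups are not independent. miR-302c-5p in the Trim71-/- library of day 1 had a ratio of 0.808, and its value there is the floor. miR-302a-5p in the Trim71-/- library of day 3 had a ratio of 0.789, at 29.4 normalised reads beside 148 to 226 on the other days.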

How the results depend on the processing

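Of 167 alternative values for single members, 142 kept their direction and their side of the study's thresholds, 21 came past the thresholds and 4 changed sign. The number of members lower past the thresholds, 0 with pairing (4.56% of all miRNAs), was 3 without the replicate block (9.97%), 3 with clone as the block (9.63%), 4 with all 11 libraries unpaired (11.99%), 2 when scaled to library totals (7.94%), 1 when scaled to totals without miR-290 to miR-295 (7.26%), 2 on untransformed values with or without the floor (3.21%), 1 with limma's trend (4.22%), and 0 to 2 with a pair left out (1.86% to 7.43%). The number at an adjusted p under 0.05 was 2 with all 11 libraries unpaired (6.08%), where day 2 adds no measurement. Unpaired fits treat mirrored values as independent. With the mean filter, 5 members were fitted and all 5 were lower. Scaling to library totals moved the median of all miRNAs to -0.24. The members' median relative to that of all miRNAs was -0.67 under each of 3 scalings, as in the paired fit. Scaling moves every miRNA of a library alike, so that this equality is imposed and is no sign of stability. The members' median itself was -0.80 to -0.34 with a pair left out.

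miR-302b-3p was at 0.16 in clone 1 alone and between -0.54 and 0.00048 with a pair left out. The ranges with a pair left out were -0.71 to 0.073 for miR-367-3p and -0.97 to 0.053 for miR-302a-5p. The arm difference of miR-302a was 0.041 with a pseudocount of 10 and -0.33 to 0.52 with a pair left out, and that of miR-302d was -0.15 to 0.29. The clone difference of miR-367-3p was 0.33 when scaled to totals. The cluster's share differed by -0.19 percentage points of the total and by -0.43 without miR-290 to miR-295 in the total, and by -0.23 to -0.12 with a pair left out. The cause was not tested.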
